A study of Mus musculus with 6 samples.

Results

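Sub-cluster 2 of the re-clustered astroglial cells was examined in single-cell RNA-seq libraries from the mouse striatum. Its members were all cells that carry the number 2 in the deposited annotation of astroglial sub-clusters, and they were matched to the count table by cell. They were 924 of 9992 astroglial cells and of 14373 annotated cells. Of these, 922 came from the postnatal day 3 (P3) libraries, with 162, 469 and 291 in replicates 1, 2 and 3, and 2 came from replicate 2 of the 3-month (3m) libraries. The series held 3 libraries at P3 and 3 at 3m, all from the striatum of wild-type male mice of the C57BL/6 strain. Astrocytes were enriched from cell suspensions by magnetic sorting for ACSA2, which astrocytes carry on their surface, and cells were captured with the 10x Chromium 3′ chemistry (v3.1). The labels name neither a transgene nor a treatment. Per the study's methods the brains of several animals went into each preparation, and the striatum was taken without the subventricular zone. The number of animals behind each library is not given in the sources used here, so the spread between libraries of an age may in part be technical.

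Most striatal astrocytes are born around birth from radial glia and glial progenitors of the ventricular zones, and they go on dividing locally for a time. As a progenitor leaves the cell cycle, it stops making the proteins of DNA replication and of mitosis, and only later builds up the transporters, metabolic enzymes and water channels of a mature astrocyte. In the study's ordering of the astroglial cells by pseudotime, a score that places cells along a path of gradual expression change, sub-cluster 2 lies between sub-cluster 8, which is rich in transcripts of dividing cells, and sub-cluster 0, a main population of P3 astrocytes. Sub-cluster 6, also of dividing cells, is the start of that path, and sub-clusters 7 and 14 of the 3m libraries are its end.

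In what follows, UMIs (molecular tags, so that copies of the same captured transcript count once) were summed over the cells of a population within each P3 library and scaled to CPM, counts in 1000000 UMIs. Sub-cluster 2 was set against the other 7952 P3 astroglial cells of the same 3 libraries, and, to see where it stands in the study's order, against sub-cluster 8, sub-cluster 0, and sub-clusters 0 and 1 together. The last pair was used because library and sub-cluster were tied there, a choice made after the cell counts were seen. Of 1211 P3 cells of sub-cluster 1, 1156 lay in replicate 1, and of 1830 cells of sub-cluster 0, 115 lay in that library. Sub-clusters 4 and 12 were also mostly of 1 library (719 of 734 and 273 of 284 cells in replicate 3). Without them the median depth of the other cells was 7850 in place of 7365 UMIs, and 40 and 393 genes were past the fold rule given below in place of 39 and 392. The other cells included sub-clusters 3, 4, 5, 10, 12 and 15 (781, 734, 730, 332, 284 and 145 cells). The study places these with non-telencephalic astrocytes of a reference atlas and proposes that they may come from neighbouring regions. The part that this regional make-up plays in the differences was not tested.

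A difference is the mean over 3 libraries of log2((CPM + 1)/(CPM + 1)), sub-cluster 2 over the reference, with its SD over libraries (n = 3 throughout). The cells were clustered on these same transcripts, so differences between clusters are descriptions and carry no test. A gene counts as measured where the mean of both populations is at least 10 CPM, and as past the fold rule where the mean difference is at least 1 on the log2 scale (2-fold) with the same sign in 3 of 3 libraries.

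The label of the population was checked first. *Sox9*, a transcription factor of the astroglial lineage, was at 366, 381 and 693 CPM in the 3 libraries of sub-cluster 2 and at 547, 532 and 922 CPM in the other P3 astroglial cells. It was lower in sub-cluster 2 within each library, by a mean difference of -0.49 ± 0.083, although the ranges overlapped because replicate 3 was the highest in both populations. *Fabp7*, a fatty acid binding protein of radial glia and immature astrocytes, was at 19353, 27476 and 21803 CPM against 20981, 23376 and 17469.7 CPM, a difference of 0.15 ± 0.23 without a common sign. After each cell was thinned to 2000 UMIs, 53.3 ± 8.97% of members had a UMI of *Sox9* and all had one of *Fabp7*, against 67.0 and 99.8% of the other astroglial cells. The endothelial cluster named END_7, which should lack both, had 7.99 and 14.7%, and the microglial cluster had 7.23 and 21.4%. The median members had 9755 to 14052.5 UMIs, against 22395.5 to 32603 in END_7 and 5356 to 6522.5 in microglia. Unthinned, 89.4% of members had a UMI of *Sox9* and 99.8% one of *Fabp7*, but so did 55.0 and 74.2% of END_7 cells, and the unthinned shares are therefore not read as expression. *Slc1a3*, the glial glutamate transporter GLAST, was seen in 84.9% of thinned members and *Aldh1l1*, a folate enzyme of astrocytes, stood at 408 ± 68.7 CPM. Both labelled markers were therefore present, *Sox9* at a lower level than in the other P3 astroglial cells.

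Markers of other cell types were near 0. The summed level was 0.284 ± 0.265 CPM for 5 microglial markers, 2.36 ± 0.835 CPM for 4 endothelial markers, 6.98 ± 2.71 CPM for 5 oligodendrocyte markers, 14.7 ± 3.05 CPM for 7 neuronal markers and 4.83 ± 4.53 CPM for 4 haemoglobin genes, and no gene of these lists was measured. The 4 pericyte markers summed to 5.84 ± 1.14 CPM in sub-cluster 2 and 48.6 ± 16.5 CPM in the other cells. *Pdgfrb*, the receptor that defines pericytes, was at 3.18, 4.03 and 1.64 CPM in the members. The 4 markers of multiciliated cells summed to 20.4 ± 4.997 CPM against 96.9 ± 60.8 CPM. Their defining factor *Foxj1* was at 15.1 ± 3.91 CPM in sub-cluster 2, and *Tmem212* had a UMI in 0 of 922 members, which allows up to 0.325%.

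Sub-cluster 2 made up 8.16% of P3 astroglial cells in replicate 1 (95% Wilson interval 7.04 to 9.45%), 15.1% in replicate 2 (13.9 to 16.4%) and 7.69% in replicate 3 (6.88 to 8.58%), a mean of 10.3 ± 4.16%. Replicate 2 had the largest share, and its interval did not overlap those of the other two libraries. These intervals cover counting error only. Of the 924 members, 885 (95.8%) came from 1 cluster of the study's first round of clustering, named AST_P3_3, 18 from AST_P3_0, 13 from AST_P3_4 and 3 each from the progenitor clusters GPC_8 and GPC_9. No member shared a cell barcode with a member in another library, and 4 shared one with some other barcode of the table.

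Members were deeper than the other P3 astroglial cells. The median member had 14052.5, 11932 and 9755 UMIs in replicates 1 to 3, against 9405, 7468.5 and 5221 UMIs in the other cells, and 3457 ± 399 genes against 2735 ± 487. In each library sub-cluster 2 was the deeper population, and the ranges of the medians did not overlap. Dividing cells were deeper still or alike, with medians of 16952 ± 1948 UMIs in sub-cluster 6 and 12515 ± 1922 UMIs in sub-cluster 8, while sub-cluster 0 had 6804 ± 885 UMIs. Mitochondrial transcripts made up 1.54 ± 0.394% of the UMIs of the median member and 1.87 ± 0.640% of those of the other cells. The part that depth plays in the differences given below was not tested, and values after thinning to 2000 UMIs are given where they differ. All 922 P3 members had a pseudotime. The library medians were 137.3, 139.8 and 141.7, against 107 in sub-cluster 8 and 161 in sub-cluster 0, and all members but 1 lay between 113.7 and 153.3.

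Of 8193 measured genes, 39 (0.476%) were past the fold rule and higher in sub-cluster 2 than in the other P3 astroglial cells, and 392 (4.78%) were past it and lower. After thinning to 2000 UMIs there were 88 and 610. Of the 39 higher genes, 6 were also past the rule and higher against sub-cluster 8. The median difference of all measured genes was -0.07. Libraries of the populations did not overlap for 921 genes that were higher (11.2%) and 1647 that were lower (20.1%). The genes higher in sub-cluster 2 and at 50 CPM or more were led by *Ier3*, an early response gene that is induced by growth factors and stress. It was at 119.8, 104 and 98.6 CPM in the libraries of sub-cluster 2 and at 29.97, 36.3 and 34.7 CPM in the other cells, a difference of 1.65 ± 0.28, with every library of sub-cluster 2 above every library of the others. A UMI of *Ier3* was in 15.6% of members thinned to 2000 UMIs, 10.1% of sub-cluster 8 and 10.0% of sub-cluster 6. *Nptx2*, a secreted pentraxin that gathers glutamate receptors at synapses, was at 76.7, 45.9 and 66.8 CPM against 23.7, 16.7 and 19.4 CPM (1.599 ± 0.17), and *Rasl11a*, a small GTPase-like protein of the nucleolus, at 48.1, 98.6 and 67.8 CPM against 19.2, 24.3 and 22.7 CPM (1.597 ± 0.35). Neither overlapped between the populations. *Car3*, a carbonic anhydrase (1.52 ± 0.32), *Inka2*, an inhibitor of the kinase Pak4 (1.37 ± 0.24), *Mtmr11*, of the myotubularin family (1.34 ± 0.13), and *Tagln*, an actin-binding protein of smooth muscle (1.29 ± 0.15), followed. So did *Cdca7*, a chromatin factor of proliferating cells (1.31 ± 0.26), *Spry1*, a feedback inhibitor of receptor tyrosine kinase signalling (1.45 ± 0.15), and *Klhl23* (1.01 ± 0.074). *Mest*, an imprinted gene, also had a difference of 1.01 but lay just outside the 12 genes named by size.

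**Figure D1:**
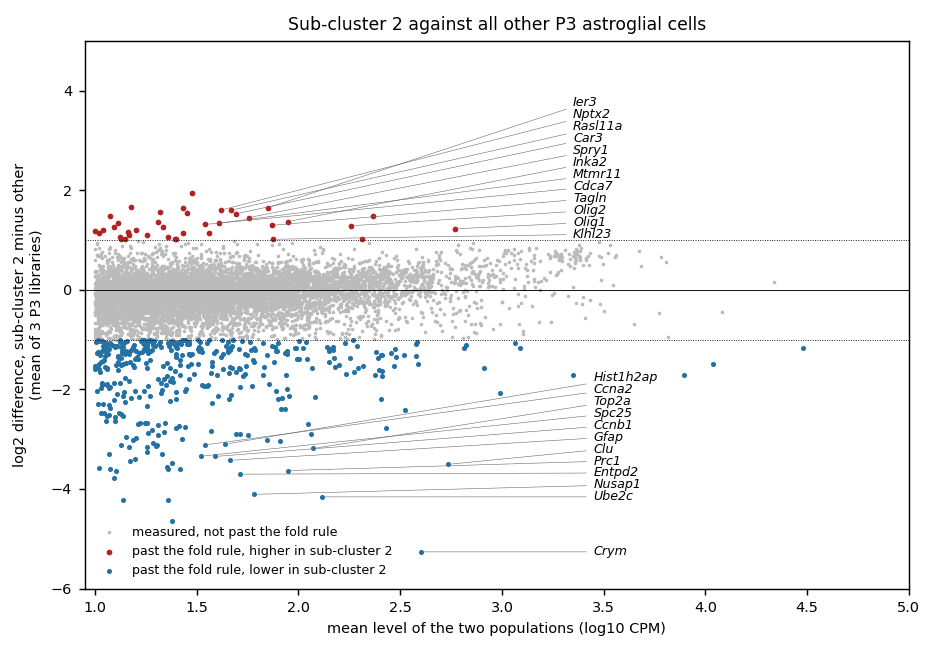
Each point is 1 of the 8193 measured genes, with the mean level of both populations in log10 CPM on the x axis and the mean log2 difference of 3 P3 libraries on the y axis. Red points (39) are past the fold rule and higher in sub-cluster 2, blue points (392) are past it and lower, dotted lines mark 1 and -1, and the named genes carry labels. *Ier3* is the uppermost labelled gene at 1.65 and *Crym* the lowest at -5.26.

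Set apart by their role were *Olig1* and *Olig2*, basic helix-loop-helix transcription factors that progenitors of oligodendrocytes and astrocytes share. *Olig2* was at 317, 245 and 212 CPM in sub-cluster 2 and at 131, 108 and 79.2 CPM in the other P3 astroglial cells, a difference of 1.28 ± 0.12. *Olig1* was at 818, 736 and 922 CPM against 379, 330.1 and 347 CPM (1.22 ± 0.16). The libraries did not overlap for either gene, beside 11.2% of all measured genes that were higher without overlap. Along the study's order, *Olig1* was highest in sub-cluster 2, with means of 538 CPM in sub-cluster 6, 530.3 in sub-cluster 8, 825 in sub-cluster 2, 361 in sub-clusters 0 and 1, and 27.5 in the 3m sub-clusters 7 and 14. *Olig2* went from 152 through 231 and 258 to 88.3 and 3.98 CPM in the same order, and the ranges of sub-clusters 8 and 2 overlapped. Thinned to 2000 UMIs, 39.4 ± 6.61% of members had a UMI of *Olig2* and 71.0 ± 5.02% one of *Olig1*. In END_7 the shares were 0.195 and 0.321%, and in microglia 2.19 and 5.61%.

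The other markers of oligodendrocyte precursors were low, none of them measured. *Pdgfra*, the receptor that defines these precursors, was at 0, 1.05 and 0.327 CPM in the 3 libraries of sub-cluster 2, at 2.34, 1.53 and 1.02 CPM in the other P3 astroglial cells and at 17.1, 10.1 and 1.16 CPM in sub-cluster 8. *Sox10*, the transcription factor of the oligodendrocyte lineage, was at 7.71, 3.15 and 4.58 CPM against 0.696, 1.65 and 0.7897 CPM in the other cells, and *Cspg4*, the NG2 proteoglycan, at 14.1, 8.41 and 12.4 CPM against 9.24, 4.86 and 7.76 CPM. Both were thus higher in sub-cluster 2 within each library, without overlap for *Sox10*, while *Pdgfra* was lower within each. A thinned member had a UMI of *Sox10* in 1.44 ± 0.691% of cases, against 0.111% of the other cells. Of the 5 markers on the list, *Olig1* and *Olig2* were measured.

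Transcripts of mitosis were low in sub-cluster 2. All 16 genes of the G2 and M phase list were past the fold rule and lower than in the other P3 astroglial cells. Over all measured genes the share was 4.78%. The list median was -2.96 ± 0.25, with sums of 602 ± 83.9 CPM against 2425 ± 200.4 CPM. *Ube2c*, which marks mitotic cyclins for destruction, was at 13.6, 13.8 and 11.1 CPM against 231, 285 and 224 CPM (-4.16 ± 0.15). *Nusap1*, a spindle protein, was at 4.54, 7.01 and 5.89 CPM against 120.01, 114 and 112 CPM (-4.11 ± 0.31), and *Top2a*, the topoisomerase that untangles sister chromosomes, at 25.9, 18.4 and 23.9 CPM against 242, 187 and 213 CPM (-3.19 ± 0.086). None of these genes overlapped between the populations, beside 20.1% of all measured genes that were lower without overlap. *Ccnb1*, cyclin B1, had -3.35 ± 0.26. Outside the list, *Prc1*, a bundler of spindle microtubules, *Spc25*, of the kinetochore, and *Ccna2*, cyclin A2, had differences of -3.63 ± 0.073, -3.34 ± 0.43 and -3.12 ± 0.38. The histone gene *Hist1h2ap*, not counted here as a gene of mitosis, was also lower (-3.100 ± 0.15). Histone genes have near-identical copies, so that reads may have been shared among them.

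The direction turned with the cells of reference. Without the 633 and 544 cells of sub-clusters 6 and 8 among the others, the median was 0.86 ± 0.88, an SD larger than the value. Against sub-cluster 8, where 3.59% of measured genes were past the rule and lower, the G2 and M phase genes had a median of -4.94 ± 0.25, all 16 past the rule and lower, whereas against sub-clusters 0 and 1 the median of all 16, with no filter on low values, was 1.86 ± 0.31. There 15 of the 16 were higher in 3 of 3 libraries, *Aurka*, a mitotic kinase, had no common sign, and 11 of the 16 were too low to be measured. How many of all genes were higher in 3 of 3 libraries was not counted for that reference. The list summed to 6359 ± 159.5 CPM in sub-cluster 6, 9283 ± 1324 CPM in sub-cluster 8, 602 ± 83.9 CPM in sub-cluster 2, 199.8 ± 39.4 CPM in sub-clusters 0 and 1 and 60.2 ± 11.2 CPM in sub-clusters 7 and 14 at 3m. *Mki67*, the proliferation marker Ki-67, was at 15.9, 8.93 and 12.4 CPM in sub-cluster 2, 469, 266 and 319 CPM in sub-cluster 8 and 4.12, 2.105 and 1.42 CPM in sub-clusters 0 and 1. *Ccnb2*, cyclin B2, had the largest difference of the list from sub-clusters 0 and 1, at 29.04, 25.8 and 26.8 CPM against 1.37, 1.64 and 0.70996 CPM (3.68 ± 0.34). The members thus held mitotic transcripts at levels between those of dividing cells and of the main astrocytes, and no libraries of these 3 populations overlapped for the list sum, *Mki67* or *Ccnb2*. *Hmgb2* alone had means of 425 CPM in sub-cluster 2 and 169 CPM in sub-clusters 0 and 1, most of the list sum in both.

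Few members counted as cycling. Thinned to 2000 UMIs, a cell with UMIs of 2 or more of *Cdk1*, *Mki67* and *Top2a* counted as cycling. This held for 0 of 155 members in replicate 1, which allows a share of up to 1.94%, for 2 of 460 in replicate 2 (0.435%, Wilson interval 0.119 to 1.57%) and for 4 of 288 in replicate 3 (1.39%, 0.541 to 3.52%). The mean of 0.608 ± 0.710% compared with 50.7 ± 1.74% in sub-cluster 6, 38.3 ± 6.34% in sub-cluster 8 and 0.0361 ± 0.0625% in sub-clusters 0 and 1. Without thinning the share in sub-cluster 2 was 11.4 ± 1.92%, against 93.6, 77.0 and 0.831%.

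The S phase list stood differently. Of the 16 S phase genes, all measured, 10 were higher and 2 lower than in the other P3 astroglial cells in 3 of 3 libraries, and 1 was past the fold rule, with a median of 0.41 ± 0.051. Over all measured genes, 2201 (26.9%) were higher and 3346 (40.8%) lower in 3 of 3 libraries. Against sub-clusters 0 and 1, where 294 of 8032 genes (3.66%) were past the rule and higher, 15 of the 16 were so, with a median of 2.18 ± 0.027. Their sum was 977 ± 78.9 CPM in sub-cluster 2 and 941 ± 139.7 CPM in sub-cluster 8, whose ranges overlapped, but 3006 ± 421 CPM in sub-cluster 6 and 249 ± 4.63 CPM in sub-clusters 0 and 1.

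The members of the list were not alike. *Ung*, the uracil glycosylase that repairs newly made DNA, was at 49.005, 34.2 and 40.9 CPM in sub-cluster 2, 12.2, 12.004 and 13.4 CPM in the other P3 astroglial cells and 4.57, 3.96 and 6.94 CPM in sub-cluster 8. It did not overlap with either, and its differences were 1.63 ± 0.25 and 2.797 ± 0.38. *Mcm6*, a subunit of the helicase that opens DNA at origins, was at 77.1, 54.1 and 69.1 CPM, against 28.5, 19.1 and 24.7 CPM in sub-cluster 8 (1.44 ± 0.029) and 11.6, 9.12 and 10.5 CPM in sub-clusters 0 and 1 (2.56 ± 0.10). *Rrm2*, the ribonucleotide reductase subunit, went the other way against sub-cluster 8, at 70.3, 58.9 and 107 CPM against 209, 145 and 269 CPM (-1.39 ± 0.14), as did *Tyms*, thymidylate synthase (-1.05 ± 0.28). Set against sub-clusters 0 and 1, *Rrm2* had the largest difference of the list (3.34 ± 0.40) and *Slbp*, which binds histone mRNAs, the smallest (0.86 ± 0.13). *Pclaf*, a partner of the replication clamp that was on no list, led the genes higher than in sub-cluster 0. It was at 68.1, 116 and 133 CPM in sub-cluster 2, 1.25, 3.12 and 4.72 CPM in sub-cluster 0 and 258, 208 and 296 CPM in sub-cluster 8. Its differences were 4.77 ± 0.20 and -1.302 ± 0.55, and no libraries of the 3 populations overlapped. Against all other P3 astroglial cells it was lower (-0.89 ± 0.30). Of thinned members, 58 of 155, 141 of 460 and 97 of 288 had at least 2 UMIs of the S phase list. The other populations were not counted this way, so these counts are not read as a share of cells in S phase.

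Genes of G1 and of cell cycle exit went both ways, with 4 higher and 4 lower in 3 of 3 libraries of 9 measured. The shares over all measured genes were 26.9% higher and 40.8% lower. *Ccnd2* and *Ccnd1*, D cyclins that carry cells through G1, were at 891, 689 and 758 CPM and 239, 167 and 191 CPM in sub-cluster 2, with differences of 0.72 ± 0.046 and 0.72 ± 0.14 from the other P3 astroglial cells. *Cdk4* and *Cdk6*, their kinase partners, had 0.49 ± 0.11 and 0.42 ± 0.16, and against sub-clusters 0 and 1 both were past the rule (1.04 ± 0.15 and 1.596 ± 0.49). *Btg1*, an antiproliferative gene, was lower than in the other cells (-0.89 ± 0.12), as was *Cdkn1b*, the inhibitor p27 (-0.45 ± 0.12). No gene of this list was past the rule against the other cells, and its median was -0.052 ± 0.15, beside -0.07 over all genes.

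**Figure D2:**
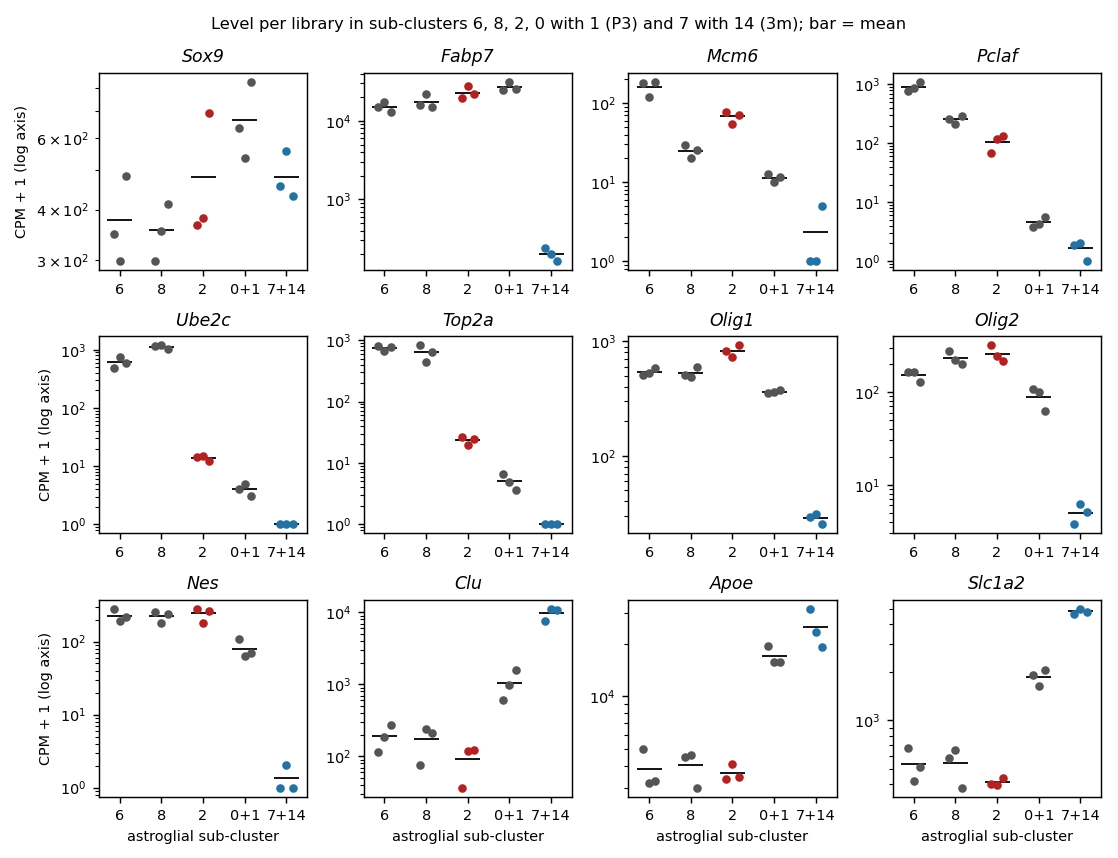
Each panel gives 1 gene as CPM + 1 on a log axis, a point per library and a bar at the mean, in sub-clusters 6, 8, 2, 0 with 1 (all P3) and 7 with 14 (3m), with sub-cluster 2 in red and 3m in blue. *Top2a* and *Ube2c* are far lower in sub-cluster 2 than in sub-cluster 8, *Mcm6* is not, *Olig1* is highest in sub-cluster 2, and *Apoe*, *Clu* and *Slc1a2* are higher in every population to its right.

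Because the replication and mitosis genes differed in how far they stood from sub-cluster 8, though both lists stood above sub-clusters 0 and 1, the DNA in front of them is shown for 2 genes of each list. The 250 bases before each RefSeq start site (GRCm38.p6) were searched on both strands. The E2F octamers, bound by E2F factors ahead of S phase, were TTTCCCGC, TTTCGCGC, TTTGCCGC and TTTGGCGC, and the CHR elements of mitotic genes were TTTGAA and TTCGAA. Octamers in opposite orientation can overlap, and overlapping matches were counted each. An octamer was in 5 of 17 windows of the S phase list (14 of 16 genes matched, 29.4%), in 1 of 14 of the G2 and M phase list and in 1.86% of all 32851 windows. A CHR element was in 7 of 14 windows of the G2 and M phase list (14 of 16 genes matched, 50%), in 3 of 17 of the S phase list and in 17.1% of all windows. CCAAT, also searched, was in 11 of 17 windows of the S phase list, 12 of 14 of the G2 and M phase list and 33.8% of all. The genes shown were taken from those with a match. *Ung*, *Rrm2* and *Tyms* held no octamer, though *Ung* lay further above sub-cluster 8 than *Mcm6* and the others lay below it. The stretches run 5′ to 3′ on the coding strand, with matches in capitals, octamers in *Mcm5* and *Mcm6* and CHR elements in *Mki67* and *Top2a*, and they describe letters, not binding.
Mcm5: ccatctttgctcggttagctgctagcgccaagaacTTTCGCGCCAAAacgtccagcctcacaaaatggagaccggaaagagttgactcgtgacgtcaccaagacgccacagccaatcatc
Mcm6: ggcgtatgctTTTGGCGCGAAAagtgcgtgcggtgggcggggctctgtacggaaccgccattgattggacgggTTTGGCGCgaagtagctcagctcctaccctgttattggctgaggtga
Mki67: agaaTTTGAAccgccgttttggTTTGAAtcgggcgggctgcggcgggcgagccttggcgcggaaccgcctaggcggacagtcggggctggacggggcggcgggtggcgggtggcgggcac
Top2a: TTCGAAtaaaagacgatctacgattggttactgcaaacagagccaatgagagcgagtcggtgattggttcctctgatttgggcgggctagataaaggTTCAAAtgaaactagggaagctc
The *Mcm5* stretch is chr8:75109321-75109440 on the plus strand, with overlapping matches that begin 153 and 149 bases before the start site. The *Mcm6* stretch is chr1:128359706-128359825 on the minus strand, with matches at 110, 106 and 47 bases. Those of *Mki67* (chr7:135716380-135716499, minus strand) and *Top2a* (chr11:99024190-99024309, minus strand) hold matches at 116 and 98 bases and at 120 and 23 bases. In sub-cluster 2 the first pair stood at 30.1 ± 7.76 and 66.8 ± 11.7 CPM, and their differences from sub-cluster 8 were 0.26 ± 0.19 and 1.44 ± 0.029, against -4.71 ± 0.12 and -4.697 ± 0.22 for the second pair. From sub-clusters 0 and 1 the 4 genes differed alike in direction, by 2.67 ± 0.18 and 2.56 ± 0.10 for the first pair and 1.96 ± 0.45 and 2.27 ± 0.43 for the second.

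Genes of mature astrocytes were low. All 8 measured genes of that list were lower than in the other P3 astroglial cells in 3 of 3 libraries, and 4 were past the rule, with a median of -1.13 ± 0.20. Of all measured genes, 40.8% were lower in 3 of 3 libraries and 4.78% were past the rule and lower. *Apoe*, the main lipid carrier that astrocytes secrete, was at 3348, 4076 and 3456 CPM in sub-cluster 2 and 15221, 10729 and 10164 CPM in the other cells (-1.71 ± 0.42). *S100b*, a calcium-binding protein of astrocytes, was at 14.1, 34.5 and 18.7 CPM against 58.2, 79.7 and 69.5 CPM (-1.67 ± 0.42), and *Slc1a2*, the glutamate transporter GLT-1, at 400.2, 391 and 438 CPM against 1482, 1014 and 1197 CPM (-1.57 ± 0.28). The libraries did not overlap for any of these genes, beside 20.1% of all measured genes that were lower without overlap. *Aqp4*, the water channel of the end-feet, was also past the rule (-1.31 ± 0.41), while *Glul*, glutamine synthetase (-0.95 ± 0.089), and *Aldoc*, a glycolytic enzyme (-0.67 ± 0.10), were not.

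The mature list hardly differed from sub-cluster 8. Its median was -0.045 ± 0.24 there and -1.51 ± 0.13 against sub-clusters 0 and 1, where 7 of 8 genes were past the rule and lower, beside 510 of all 8032 (6.35%). Sums were 6517 ± 1112 CPM in sub-cluster 8, 6563 ± 553 CPM in sub-cluster 2, 24489.8 ± 2039 CPM in sub-clusters 0 and 1 and 41868 ± 6421 CPM in sub-clusters 7 and 14 at 3m. *Aldoc* was the member that set sub-cluster 2 apart from sub-cluster 8, at 554, 666 and 583 CPM against 226, 318 and 201 CPM (1.297 ± 0.24), with no overlap.

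Among the genes lower in sub-cluster 2 by the largest differences, several were astrocytic. *Crym*, a thyroid hormone binding protein of striatal astrocytes, was at 5.44, 35.4 and 22.9 CPM against 317, 1111 and 899 CPM (-5.26 ± 0.35). Its libraries did not overlap, beside 20.1% of all measured genes that were lower without overlap, and replicate 1 was the lowest in both populations. *Clu*, the secreted chaperone clusterin, was at 35.8, 117 and 121 CPM against 537, 972 and 1478 CPM (-3.51 ± 0.42). *Entpd2*, an ectonucleotidase that breaks down ATP, was at 3.18, 12.6 and 6.22 CPM against 89.002, 97.5 and 101 CPM (-3.703 ± 0.79), and *Gfap*, the astrocytic intermediate filament, at 1.81, 9.64 and 10.5 CPM against 42.2, 65.2 and 148 CPM (-3.43 ± 0.69). Against sub-cluster 8 the differences were smaller. *Gfap* stood at 1.52, 13.3 and 6.94 CPM there, a difference of 0.087 ± 0.48 without a common sign, and *Crym*, at 26.3, 176 and 113 CPM, was lower in sub-cluster 2 within each library (-2.205 ± 0.11) although the ranges overlapped. *Crym*, *Entpd2*, *Clu* and *Gfap* also led the genes lower than in sub-cluster 0, followed by *Ephx2*, an epoxide hydrolase (-3.403 ± 0.62), and *Abhd3*, a phospholipase (-2.99 ± 0.57). *Crym* had an SD of 2.51 in that comparison, where replicate 1 rests on 115 cells of sub-cluster 0.

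Extracellular matrix and matricellular genes were low as well. All 9 measured genes were lower than in the other P3 astroglial cells in 3 of 3 libraries, with a median of -0.95 ± 0.22 and 4 past the rule. The shares over all measured genes were 40.8% and 4.78%. *Sparc*, a secreted antagonist of synapse formation, was at 90.3, 127 and 97.6 CPM against 591, 484 and 602 CPM (-2.41 ± 0.43), and its relative *Sparcl1*, or hevin, which promotes synapses, at 309.9, 362 and 455 CPM against 1999, 1247 and 1508 CPM (-2.07 ± 0.54). *Hapln1*, which links hyaluronan to proteoglycans (-1.74 ± 0.33), and *Bcan*, brevican (-1.17 ± 0.43), were the other genes past the rule. *Ptn*, the growth factor pleiotrophin, had the highest level of the list, 4381 ± 582 CPM against 8678 ± 2584 CPM (-0.95 ± 0.22). Against sub-clusters 0 and 1 all 9 were past the rule and lower, beside the 6.35% of all genes (median -1.45 ± 0.082), and against sub-cluster 8 none was (-0.083 ± 0.17). Of the 10 astroglial markers, 8 were lower and 1 higher in 3 of 3 libraries, and *Slc1a2*, *Aqp4* and *Gfap* were past the rule, with a median of -0.68 ± 0.18. Radial glia genes had a median of -0.68 ± 0.17 with 3 of 13 past the rule and lower, among them *Pax6*, a transcription factor of radial glia (-1.28 ± 0.36). *Nes*, the intermediate filament nestin of neural stem cells, went against the list, at 281, 180.1 and 263 CPM against 152, 110.04 and 142 CPM (0.83 ± 0.10).

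**Figure D3:**
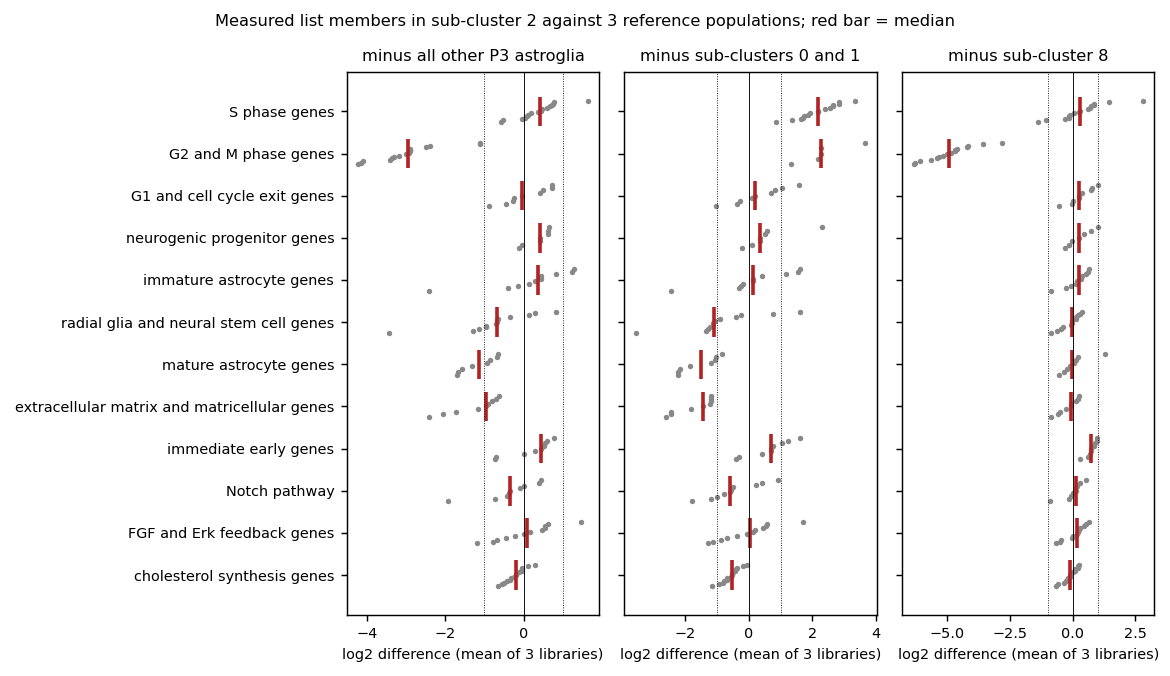
Each grey point is a measured gene of 1 of 12 lists, with its log2 difference (mean of 3 libraries) on the x axis, against the other P3 astroglial cells, sub-clusters 0 and 1, and sub-cluster 8, and red bars are medians. The G2 and M phase bar lies at -2.96 and -4.94 in the outer panels (16 genes) and at 2.27 in the middle one, where 5 of the 16 were measured, and the mature astrocyte bar at -1.13, -1.51 and -0.045.

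Genes of immature astrocytes went both ways. Of 10 measured genes, 6 were higher and 3 lower in 3 of 3 libraries, beside 26.9 and 40.8% of all measured genes. *Olig1*, *Olig2* and *Sparc* were past the rule, the last of them lower. The median was 0.36 ± 0.23 against the other P3 astroglial cells and 0.12 ± 0.19 against sub-clusters 0 and 1. *Hes5*, a Notch effector that keeps progenitors undifferentiated, was at 1903, 1363 and 1187 CPM against 1504, 1061 and 774 CPM (0.44 ± 0.15), and *Id3*, an inhibitor of helix-loop-helix factors, at 1175, 1598 and 1403 CPM against 1020.1, 1071 and 957 CPM (0.44 ± 0.21). *Nfia*, a gliogenic transcription factor, was lower (-0.39 ± 0.14). Of 5 measured maturation transcription factors (median -0.57 ± 0.058), 4 were lower in 3 of 3 libraries, beside 40.8% of all measured genes. *Dbx2*, a homeobox gene, was higher (0.19 ± 0.12), and none was past the rule. *Rorb*, a nuclear receptor of astrocyte maturation, was at 146, 196 and 231 CPM against 275, 291 and 320.1 CPM (-0.65 ± 0.23).

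Neurogenic progenitor genes had a median of 0.41 ± 0.041, with 5 of 7 measured genes higher in 3 of 3 libraries, beside 26.9% of all measured genes, and none past the rule. *Egfr*, the receptor of activated progenitors, was at 177, 148 and 213 CPM against 136, 93.7 and 114 CPM (0.64 ± 0.26). *Dll3* and *Dll1*, Notch ligands, stood at 6.81, 11.6 and 11.1 CPM and 6.35, 4.205 and 5.24 CPM and so were not measured. *Dcx*, of migrating neuroblasts, had a UMI in 0 of the 922 P3 members, which allows a share of up to 0.325%. In the Notch list (9 measured, median -0.35 ± 0.15) *Notch2*, a receptor, was the gene past the rule, at 11.3, 27.3 and 31.8 CPM against 44.8, 95.9 and 143 CPM (-1.93 ± 0.18), while *Hes1*, an effector, was higher (0.39 ± 0.069).

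Signalling feedback and early response genes differed gene by gene. In the FGF and Erk feedback list (12 measured, median 0.087 ± 0.12) the inhibitor *Spry1* was past the rule and higher, at 101, 76.4 and 75.3 CPM against 32.2, 29.5 and 28.1 CPM, and the receptor *Fgfr2* was past it and lower (-1.19 ± 0.26). In the BMP and Id list (8 measured, median -0.55 ± 0.23) *Id4* was past it and lower, at 25.4, 30.5 and 24.9 CPM against 137, 154 and 143 CPM (-2.39 ± 0.091). Of 9 immediate early genes, 5 were higher and 2 lower in 3 of 3 libraries, beside 26.9 and 40.8% of all measured genes. *Egr1*, a growth factor induced zinc finger, was at 701, 482 and 712 CPM against 439.6, 303 and 371 CPM (0.76 ± 0.16), and *Fosb*, of the AP-1 family, was lower (-0.73 ± 0.38). *Fos*, the most abundant of them, was at 1862, 1722 and 2524 CPM against 1652, 1365 and 1966 CPM (0.29 ± 0.10). The sum of the list was 4466 ± 656 CPM in sub-cluster 2, above the 3623 ± 390.2 CPM of sub-cluster 6, the 2528 ± 400.1 CPM of sub-cluster 8 and the 2797 ± 1100.5 CPM of sub-clusters 0 and 1. The ranges overlapped only with the last, where replicate 1 was the highest at 4055 CPM. *Cebpd*, *Zfp36* and *Socs3*, genes of the acute cytokine response, were among the 6 that led the genes higher than in sub-cluster 8, with 1.45 ± 0.12, 1.25 ± 0.44 and 1.25 ± 0.34.

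Ribosomal protein genes were higher as a block. All 81 measured were higher than in the other P3 astroglial cells in 3 of 3 libraries, beside 26.9% of all measured genes, none past the rule, with a median of 0.68 ± 0.078. They took 19.1, 20.4 and 16.9% of UMIs in sub-cluster 2. Their sums were 180933 ± 18022 CPM in sub-cluster 6, 173542 ± 6368 CPM in sub-cluster 8, 188115 ± 18063 CPM in sub-cluster 2 and 88237 ± 12882 CPM in sub-clusters 0 and 1, so that the first 3 populations overlapped and the last did not. Families of near-identical copies make counts of single ribosomal genes uncertain. The 13 mitochondrial genes were lower in 3 of 3 libraries (median -0.33 ± 0.10, 1 past the rule). Of the metabolic lists, glycolysis genes had a median of 0.17 ± 0.046 and cholesterol synthesis genes one of -0.20 ± 0.12, with none past the rule. *Ldha*, lactate dehydrogenase A, was at 571, 448 and 439.7 CPM against 316, 274 and 232 CPM (0.83 ± 0.11). Hypoxia-responsive genes were lower in 6 of 6, beside 40.8% of all measured genes (median -0.65 ± 0.16), with *Vegfa*, the angiogenic growth factor (-1.06 ± 0.31), and *Bnip3*, of mitophagy (-1.06 ± 0.24), past the rule. Hedgehog, Wnt, telencephalic and stress response genes had medians of -0.32 ± 0.058, -0.091 ± 0.092, -0.55 ± 0.069 and 0.16 ± 0.13, none with a gene past the rule. Of 4 measured non-telencephalic genes (median -1.21 ± 0.21), 3 were lower, and *Agt*, angiotensinogen, and *Itih3* were past the rule (-2.28 ± 0.33 and -1.88 ± 0.18). *Agt* stood at 10.4, 14.9 and 11.5 CPM in the members. The other cells included the sub-clusters that the study places with non-telencephalic astrocytes.

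By number of genes, sub-cluster 2 was nearest to sub-cluster 8. Of the genes measured in each comparison, 323 (4.08%) were past the rule in either direction against sub-cluster 8, 482 (6.01%) against sub-cluster 6, 786 (9.85%) against sub-cluster 0, 1476 (17.9%) against sub-cluster 5 and 1484 (18.3%) against sub-cluster 11, the sub-clusters with at least 50 cells in every P3 library. Against sub-cluster 8, 39 of 7909 genes were higher (0.493%) and 284 lower (3.59%). The lower ones were led by mitotic genes. *Hmmr*, which organizes the spindle, was at 0.454, 0.526 and 1.96 CPM against 305, 139 and 193 CPM, *Plk1*, the polo kinase, at 0.907, 1.58 and 1.96 CPM against 204, 162 and 200.2 CPM, *Cenpe*, the kinetochore motor, at 4.54, 1.23 and 4.26 CPM against 314, 156 and 197 CPM, and *Gas2l3*, of the cytokinetic bridge, at 0, 0.701 and 0.982 CPM against 100.5, 66.6 and 92.2 CPM. Against sub-cluster 0, 315 of 7977 genes were higher (3.95%) and 471 lower (5.90%). After *Pclaf* the higher ones were led by *Nrgn*, neurogranin, a calmodulin-binding protein, at 55.8, 64.5 and 71.1 CPM against 1.25, 2.16 and 3.09 CPM (4.39 ± 0.26), *Cenpm*, of the kinetochore (3.700 ± 0.60), *Rrm2* (3.601 ± 0.50), *Tagln2*, an actin-binding protein (3.42 ± 0.60), and *Ier3* (3.21 ± 0.97).

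Levels were not always between those of sub-clusters 8 and 0 and 1. Of 8789 genes at 10 CPM or more in one of these populations, the mean level of 4529 (51.5%) lay between the others in sub-cluster 2, 2196 lay above both and 2064 (23.5%) below both. All 16 G2 and M phase genes lay between. Of 16 S phase genes 10 lay above both, as did 7 of 9 immediate early genes and 6 of 10 genes of immature astrocytes. Below both lay 6 of 9 extracellular matrix genes, 5 of 9 genes of mature astrocytes, 9 of 15 cholesterol synthesis genes and 10 of 13 mitochondrial genes.

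The cells within sub-cluster 2 also differed along the study's pseudotime. Each library was split at its median, into 86, 247 and 146 earlier and 76, 222 and 145 later cells. Pseudotime was computed from the same transcripts, so this too is a description. The earlier cells were deeper, with medians of 15734, 12848 and 11511 UMIs against 12266.5, 10470.5 and 9003. Of 7851 measured genes, 2411 (30.7%) were higher and 1976 (25.2%) lower in the later cells in 3 of 3 libraries, with a median of 0.04. All 16 S phase genes were lower in the later cells (median -1.94), as were all 16 G2 and M phase genes, taken with no filter on low values (-1.52), and 81 of 81 ribosomal protein genes (-0.49). *Pclaf* went from 97.7, 185 and 227 CPM in the earlier to 26.3, 27.5 and 10.5 CPM in the later cells, and *Ung* from 72.9, 54.7 and 68.5 to 15.3, 7.96 and 5.26 CPM. *Olig2* and *Olig1* were lower in the later cells too, at 267, 192 and 164 and 661, 545 and 664 CPM against 353, 286 and 250.03 and 929.6, 887 and 1121 CPM.

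Genes of mature astrocytes showed the reverse, with 7 of 8 higher in the later cells (median 1.32), together with 9 of 9 astroglial markers (0.95), 9 of 9 extracellular matrix genes (0.97) and 14 of 15 cholesterol synthesis genes (0.44). *Apoe* went from 1561, 1733 and 1850.0 to 5869, 7057 and 5536 CPM and *Clu* from 18.6, 40.04 and 59.2 to 60.2, 214 and 201 CPM, without overlap between earlier and later cells. *Sox9* was at 304, 282 and 514 CPM in the earlier and 454, 506 and 925 CPM in the later cells, and *Fabp7* at 15400.1, 20485 and 16230.2 and 24929.8, 36374 and 29024 CPM. *Cldn10*, a claudin singled out after its values were seen, went from 19.4, 42.5 and 35.4 to 97.4, 281 and 164 CPM. In thinned cells, detection of *Olig2* had no common direction with the S phase transcripts, though few UMIs per cell limit what this can show. Of thinned members with at least 2 UMIs of the S phase list, 43.1, 39.0 and 34.0% had a UMI of *Olig2* in replicates 1 to 3, against 48.5, 38.2 and 33.0% of the other members.

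**Figure D4:**
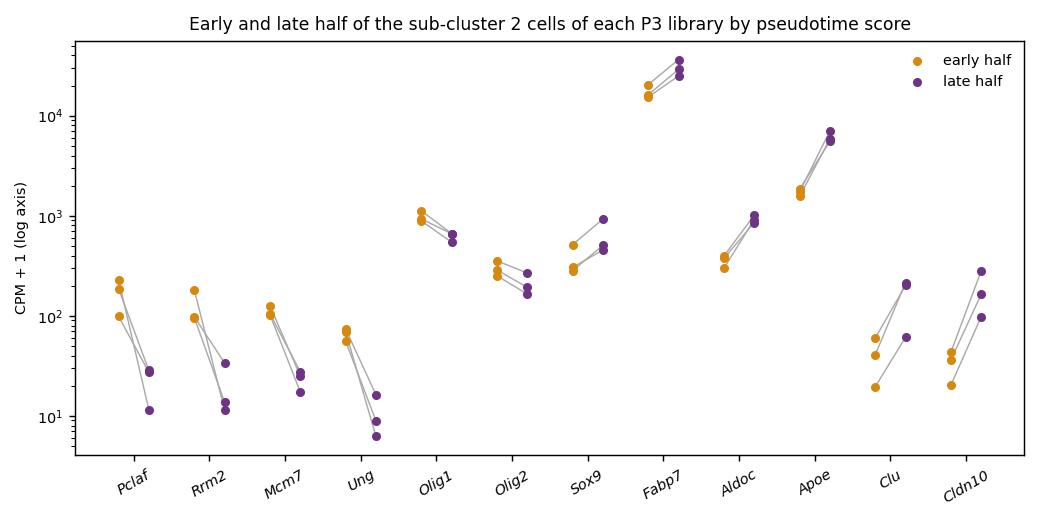
For 12 genes, CPM + 1 on a log axis in the earlier (orange) and later (purple) cells of sub-cluster 2, with a grey line joining both in each of 3 P3 libraries. Replication genes (*Pclaf*, *Rrm2*, *Mcm7*, *Ung*) and *Olig1* and *Olig2* go down from earlier to later cells in all 3 libraries, and *Sox9*, *Fabp7*, *Apoe*, *Clu* and *Cldn10* go up.

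Only 2 cells of the 3m libraries carried the number 2, too few for a value. In sub-clusters 7 and 14 at 3m (196, 283 and 309 cells in replicates 1 to 3), *Fabp7* was at 241, 198 and 163 CPM and *Olig2* at 2.74, 5.18 and 4.03 CPM, each below every library of sub-cluster 2. *Clu* stood at 7618, 11263 and 10629 CPM and *Apoe* at 31939.9, 23529 and 19272 CPM there, each above every library of sub-cluster 2, while *Sox9*, at 456, 556 and 432 CPM, overlapped with it. These 3m libraries were shallower, so that low genes were measured there with less precision.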

How the data were processed

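Single cells of 6 libraries, 3 at P3 and 3 at 3m, were used. The authors aligned the reads to mm10 with Cell Ranger and deposited a table of UMI counts per gene and cell (whole numbers, not normalized). Per the study's methods they kept cells with more than 500 genes and less than 10% mitochondrial UMIs, normalized them in Seurat (version 3.1.1 in the submitters' processing notes), clustered all cells and then re-clustered the astroglial ones. The authors deposited these cluster numbers and the pseudotime score of each cell in the cell annotation, and both were used as they stand. How doublets were treated is not given in the sources used here, and none were removed here. The libraries held 2607 to 5582 barcodes and 32193875 to 37795021 UMIs at P3, and 1308 to 1769 barcodes and 5471573 to 10522151 UMIs at 3m. Sub-cluster 2 held 2203863, 5708103 and 3054149 UMIs in the P3 libraries.

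Raw UMI counts were summed per library and population in Python 3.11.15 (numpy 2.4.6, pandas 2.3.3, scipy 1.17.1), scaled to CPM, and compared within each library with a pseudocount of 1 CPM. No p-value is given, since the clusters were made from the same transcripts. Named genes were the 12 with the largest mean difference in each direction against the other P3 astroglial cells, and 6 in each direction against sub-clusters 0 and 8, among measured genes with the same sign in 3 of 3 libraries and at least 50 CPM in the higher population. Of each of 32 lists (cell cycle, astroglial, pathway, metabolic and cell type markers), the members with the largest and smallest difference and the highest level could be named. Other list members were named after their values were seen. The members and lists were chosen with earlier results of these data known. Other scalings used TMM factors of edgeR 4.0.16 and size factors of DESeq2 1.42.0 in R 4.3.3, and neither tool was used for a test. The other alternatives were another pseudocount, no filter on low values, means per cell, thinning to 2000 UMIs, stricter cell filters (1000 genes, 5% mitochondrial UMIs), other reference cells and each library left out. Intervals are 95% Wilson intervals, and a count of 0 was given a limit of 3 counts. Both cover counting error only. The summing and the fold rule were tested on simulated data.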

Additional observations from a re-analysis of the deposited data

How the results depend on the processing

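No paired analysis was possible because no test was run, so that no fit could take a replicate block; the differences themselves were taken within each library. The mean share of sub-cluster 2 was 7.92 to 11.6% with each library left out in turn, the depth difference of 4548 UMIs was 4499 to 4591, the cycling share 0.217 to 0.912%, the counts of genes past the fold rule 32 to 48 higher and 381 to 437 lower, and the medians 0.24 to 0.45 (immature astrocyte), -1.21 to -1.02 (mature astrocyte), 0.39 to 0.41 (S phase) and -3.17 to -2.91 (G2 and M phase).

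The 39 genes past the fold rule and higher became 59 with DESeq2 size factors, 22 with a pseudocount of 5, 90 without a filter, 63 with means per cell, 88 after thinning and 74 without cells over 20000 UMIs, and the 392 lower ones 979 without a filter and 610 after thinning. With other reference cells the higher ones became 227 (without sub-clusters 6 and 8), 298 (sub-clusters 0, 1, 9 and 11), 315 (sub-cluster 0), 294 (0 and 1) and 153 (cycling cells left out), so that higher genes were 29.1, 36.7, 40.1, 36.6 and 24.4% of those past the rule in place of 9.05%. The median of all measured genes was -0.07, -0.0092 with TMM and 0.045 with DESeq2 size factors. The depth difference was 4146 UMIs with the stricter filter and 5164 without sub-clusters 6 and 8. The cycling share was 11.4% unthinned and 8.26% where 1 of the 3 genes sufficed.

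The S phase median of 0.41 was 0.47 with TMM, 0.52 with DESeq2 size factors, 0.58 with means per cell, 0.52 after thinning and 0.54 without cells over 20000 UMIs, and 1.74, 2.19, 2.21, 2.18, 1.35 and 0.28 with the 5 reference sets above in order and with sub-cluster 8. The G2 and M phase median of -2.96 was -2.55 with a pseudocount of 5, -2.41 with means per cell, -2.58 after thinning and -2.504 without cells over 20000 UMIs, but 0.86, 2.08, 2.37, 2.27 and 0.43 with the 5 reference sets and -4.94 with sub-cluster 8. With sub-clusters 0 and 1, 5 of the 16 genes passed the filter. The SD was 0.88 without sub-clusters 6 and 8 and 0.53 with cycling cells left out, in each case above the median. The mature astrocyte median of -1.13 was -1.44, -1.59, -1.47, -1.51, -1.33 and -0.045 in the same order. The immature astrocyte median was 0.017 with sub-clusters 0, 1, 9 and 11 and 0.12 with 0 and 1, and the multiciliated median was 0.47, 0.39 and 0.44 with sub-clusters 0, 1, 9 and 11, with 0 and with 0 and 1.

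The means of named mitotic genes and of the histone gene *Hist1h2ap* were of the other sign with the same reference sets. Without sub-clusters 6 and 8 they were *Ube2c* 0.48, *Nusap1* 0.16, *Prc1* 0.22, *Ccnb1* 0.89, *Spc25* 0.21, *Top2a* 0.53, *Ccna2* 0.91 and *Hist1h2ap* 0.65, with SDs of 0.48 to 1.57 that exceeded each mean, so that the libraries gave no clear sign. In the same order they were 1.67, 1.13, 1.36, 2.000, 1.17, 2.08, 1.83 and 0.84 with sub-clusters 0, 1, 9 and 11, 1.61, 1.43, 1.14, 2.36, 1.46, 2.18, 1.95 and 1.25 with sub-cluster 0 and 1.79, 1.29, 1.27, 2.101, 1.22, 2.27, 2.08 and 0.85 with 0 and 1. For *Hist1h2ap*, the last of each, the SDs of 0.86, 1.38 and 0.88 were above the means. With cycling cells left out *Prc1* was 0.18, *Top2a* 0.42 and *Hist1h2ap* 0.23, and *Gfap* was 0.087 with sub-cluster 8, all with SDs above the mean. Cycling cells were called for this setting on unthinned counts of *Cdk1*, *Mki67* and *Top2a*, which are on the G2 and M phase list. The values of *Top2a* and of that list were therefore set in part by the selection. Of 456 values of the 24 named genes over 19 alternatives, 420 kept the sign and 36 did not. The reference of sub-clusters 0 and 1, the one without sub-clusters 4 and 12, the members of AST_P3_3 alone and the limit of 20000 UMIs were chosen after the data were seen. Depth limits what single cells show, since at 2000 UMIs most members hold no UMI of a gene under 100 CPM.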
